A study of Mus musculus with 19 samples.

Results

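Transcripts of hepcidin, the liver hormone that limits how much iron enters the blood, differed with diet in these mouse livers. The genes described are 10 transcripts of iron handling and heme synthesis, chosen by symbol from the 55836 genes of the deposited table. They comprise the hepcidin genes Hamp and Hamp2, the hepcidin regulators Bmp6 and Tfr2, the transferrin gene Trf and its receptor Tfrc, the iron exporter Slc40a1, the ferritin subunits Ftl1 and Fth1, and Alas1, which encodes the first enzyme of heme synthesis. All 10 passed the filter on low counts, as did 13597 genes in all. Both hepcidin genes were lower on the MASH diet, with and without polyethylene (PE) microplastics. None of the 10 genes was called after PE.

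The livers came from male wild-type C57BL/6 mice, 8 weeks of age at the start, that were kept for 8 weeks on one of 2 diets. The MASH diet (MD) held 2% cholesterol, fat at 40 kcal% and fructose at 20 kcal%, and serves as a model of metabolic dysfunction-associated steatohepatitis. The control diet (CD, named Chow Diet in the sample labels) held 10 kcal% fat with matching sucrose. Every mouse was gavaged daily, either with the Tween 20 vehicle alone (Veh) or with vehicle carrying 2 mg of PE particles 10 to 150 µm in diameter (Microplastics in the labels). Poly(A) RNA of 4 livers was sequenced from CD + Veh, and of 5 livers from each of MD + Veh, CD + PE and MD + PE, 1 library a liver. Mice of a group were housed together, so cage and group cannot be told apart. Library numbers ran from 39 to 42 in CD + Veh, 43 to 47 in MD + Veh, 48 to 52 in CD + PE and 53 to 57 in MD + PE. The order of the libraries thus cannot be told apart from diet or from PE.

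Libraries held 10398820 to 15456729 counts, and 1 CPM (a count scaled by the size of its library, with TMM factors) stood for 9.96 to 16.1 counts. Hepatocyte markers (Alb, Apoa1, Ttr, Apoc3, Serpina1c and Tat) were present in every library, at a summed 69975 to 85800 CPM in CD + Veh and 48843 to 62598 CPM in MD + Veh, and at 62968 to 90734 CPM in CD + PE and 45420 to 60844 CPM in MD + PE. Of these 6 markers, Alb and Apoa1 were called lower in MD + Veh than in CD + Veh. Alb, Apoa1 and Ttr were called lower in MD + PE than in CD + PE. In bulk tissue, fewer cells of a type and less RNA per cell cannot be told apart. A clock score subtracted the mean log2 CPM of clock genes active at one time of day (Per1, Dbp and others) from that of genes active at the opposite time (Bmal1, Clock and others). It was -4.20 to -2.86 for CD + Veh and -1.92 to -0.09 for MD + Veh, and with PE -2.84 to 0.54 on CD and -1.85 to -0.08 on MD. CD + Veh did not overlap any other group in that score, although its highest library (-2.86) came close to the lowest CD + PE library (-2.84). A fit with the score as a covariate therefore separates it only partly from a contrast against CD + Veh.

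As background, hepatocytes secrete hepcidin, which binds the iron exporter ferroportin (Slc40a1) and causes its degradation, so that iron is retained in macrophages and gut cells. Hepcidin transcription rises when endothelial Bmp6 and Bmp2 signal through BMP receptors and SMAD proteins, with hemojuvelin, Hfe and transferrin receptor 2 on the hepatocyte surface, and it also rises in inflammation through STAT3. Iron inside the cell acts mostly after transcription: when iron is scarce, iron regulatory proteins bind hairpins named iron-responsive elements, which blocks translation of ferritin and ferroportin and stabilises the transferrin receptor mRNA.

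The hepcidin genes lie 17660 bases apart on the minus strand of chromosome 7 (GRCm39). Hamp spans positions 30641766 to 30643990 and Hamp2 positions 30621797 to 30624106, and each has 3 exons. Their mRNAs were identical at 93.3% of 430 aligned bases, and their 250 bases upstream of the RefSeq start at 91.9% of 247.

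Sequences are shown for the hairpins by which iron acts on 4 of the 10 mRNAs. The search was for a C, 5 bases, the loop CAGTGN (in capitals) and 5 bases able to pair with the first 5, on the sense strand of canonical GENCODE transcripts.
Fth1 5′ UTR, exon 1 (chr19:9960097-9960123, plus strand): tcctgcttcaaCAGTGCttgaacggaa
Ftl1 5′ UTR, exon 1 (chr7:45109204-45109230, minus strand): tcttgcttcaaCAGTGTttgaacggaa
Slc40a1 5′ UTR, exon 1 (chr1:45964626-45964652, minus strand): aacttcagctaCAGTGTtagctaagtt
Tfrc 3′ UTR, exon 19 (chr16:32450038-32450064, plus strand): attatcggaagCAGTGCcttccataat
Tfrc held 4 such matches in its 3′ UTR, of which the first is shown. Matches were present in 0.115% of 20790 5′ UTRs and 0.6% of 20833 3′ UTRs. These mRNAs are regulated in translation or stability, and translation was not measured by RNA counts.

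Hamp encodes the circulating hormone. It stood at 597, 606, 570 and 807 CPM in the CD + Veh libraries and at 218, 141, 263, 264 and 202 CPM in the MD + Veh libraries. Every MD + Veh value lay below every CD + Veh value, and the fitted level was 2.96-fold lower (log2 fold change -1.57, SE 0.21, edgeR adjusted p = 6.51e-05). Under PE the same order held, at 666, 525, 622, 715 and 316 CPM in CD + PE and 205, 280, 309, 219 and 209 CPM in MD + PE. Again the groups did not overlap, although CD + PE replicate 5, at 316 CPM, came close to the highest MD + PE library, at 309 CPM. The fitted level was 2.33-fold lower in MD + PE than in CD + PE (log2 fold change -1.22, SE 0.20, edgeR adjusted p = 0.000812).

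Hamp2 is the second mouse hepcidin gene, whose product is not known to act on iron as that of Hamp does. It stood at 47.9, 137, 38.5 and 147 CPM in CD + Veh and at 14.8, 18.7, 11.7, 13.9 and 10.2 CPM in MD + Veh. Within CD + Veh the libraries formed a low and a high pair, and all of them lay above MD + Veh. The fitted level was 6.64-fold lower in MD + Veh (log2 fold change -2.73, SE 0.39, edgeR adjusted p = 0.000111). Under PE, Hamp2 stood at 48.9, 38.9, 53.7, 22.4 and 63.0 CPM in CD + PE and at 4.23, 9.26, 10.6, 4.88 and 3.86 CPM in MD + PE, again without overlap. The fitted level was 6.93-fold lower in MD + PE (log2 fold change -2.79, SE 0.40, edgeR adjusted p = 0.000176).

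Hamp and Hamp2 were thus the 2 members of 10 called in each diet comparison, where called means an adjusted p below 0.05 and a log2 fold change of at least 0.38 in size. Over all 13597 genes tested, 10.4% were called between MD + Veh and CD + Veh in either direction and 5.63% were called lower. Between MD + PE and CD + PE, 4.61% were called and 2.92% were called lower. Groups failed to overlap, with the MD group lower, for 8.88% of all genes under vehicle and 3.96% under PE, against 2 of 10 members in each case. Median log2 fold changes of the 10 members were 0.02 and -0.01 in these comparisons, and of all genes tested 0.00 and -0.02. The summed hepatocyte markers, most of whose CPM was Alb, moved in the same direction as hepcidin. They did not overlap between the diets, either under vehicle or under PE. Alb, the most familiar of them, had a log2 fold change of -0.48 (SE 0.15, edgeR adjusted p = 0.0324) under vehicle and -0.62 (SE 0.14, edgeR adjusted p = 0.00981) under PE. Of the others, Apoa1 was called under vehicle (-0.42), while Ttr (-0.37), Apoc3 (-0.08), Serpina1c (-0.15) and Tat (-0.50) were not. Under PE, Apoa1 (-0.48) and Ttr (-0.52) were called, while Apoc3 (-0.35), Serpina1c (-0.13) and Tat (-0.67) were not. The part of the hepatocyte signal in the hepcidin difference was not tested. With the clock score as a covariate, the vehicle contrast was -1.42 for Hamp (edgeR adjusted p = 0.0217) and -2.43 for Hamp2 (edgeR adjusted p = 0.0394).

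**Figure D1:**
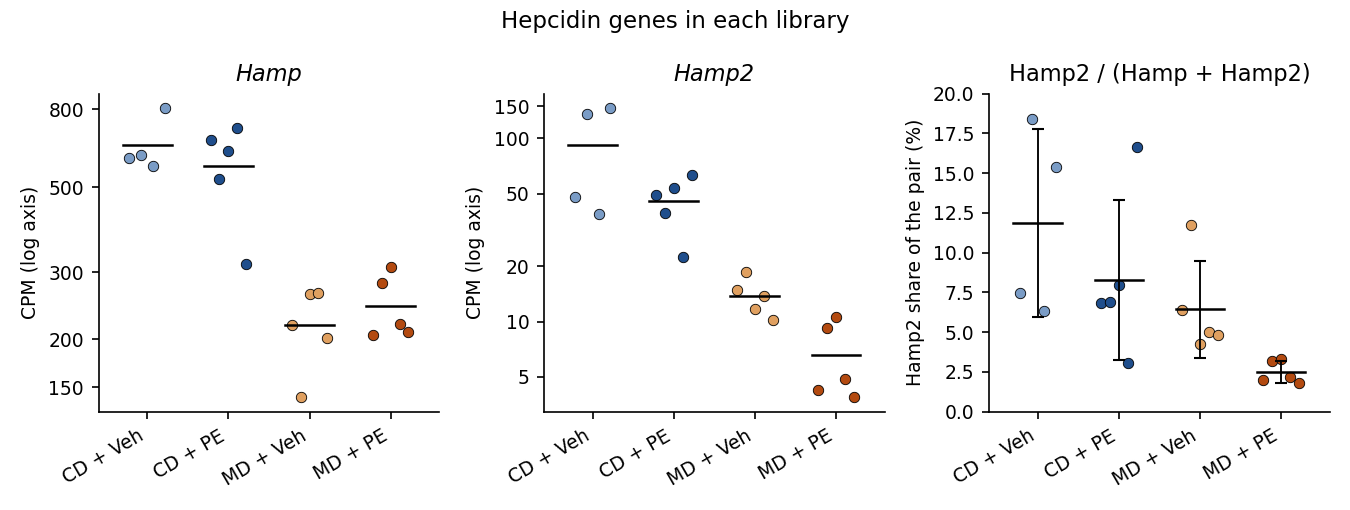
CPM of Hamp and of Hamp2 in each library (log axes, bars at the group mean) and the share of Hamp2 among the counts of both genes in percent (bars at the group mean, with SD). Hamp fell to 141 to 264 CPM in MD + Veh and 205 to 309 CPM in MD + PE, below all CD libraries, while the Hamp2 share of MD + PE, at 1.82 to 3.31%, lay below that of every MD + Veh library.

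PE was not followed by a called change in either hepcidin gene. For Hamp, the log2 fold change was -0.18 (SE 0.21, edgeR adjusted p = 0.724) between CD + PE and CD + Veh and 0.17 (SE 0.20, edgeR adjusted p = 0.749) between MD + PE and MD + Veh. For Hamp2, point estimates were lower with PE on either diet, at -1.02 (SE 0.37, edgeR adjusted p = 0.135) on CD and -1.09 (SE 0.39, edgeR adjusted p = 0.177) on MD, and the libraries overlapped. On MD, 4 of 5 PE libraries (4.23, 9.26, 4.88 and 3.86 CPM) lay below the lowest vehicle library (10.2 CPM), and the fifth was at 10.6 CPM. On CD, the highest PE library (63.0 CPM) lay well under the high pair of vehicle libraries and above the low pair. The interaction of PE and diet was 0.35 for Hamp (SE 0.29, edgeR adjusted p = 0.760) and -0.06 for Hamp2 (SE 0.53, edgeR adjusted p = 0.986).

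Set against Hamp in the same library, Hamp2 differed with PE on MD. Its share of the counts of both genes was 6.37, 11.7, 4.26, 4.98 and 4.81% in MD + Veh and 2.02, 3.20, 3.31, 2.18 and 1.82% in MD + PE. No MD + PE library reached the lowest MD + Veh library. The log2 ratio of Hamp2 to Hamp differed by -1.36 (mean -5.33 ± 0.41 against -3.97 ± 0.63, SD, n = 5 each, two-sided exact permutation test p = 0.00794, the smallest these groups allow, adjusted over 4 comparisons p = 0.0317). Between MD + PE and CD + PE the difference was -1.65 (exact permutation p = 0.0238, adjusted p = 0.0476). It was -0.93 between MD + Veh and CD + Veh (exact permutation p = 0.127, adjusted p = 0.169) and -0.64 between CD + PE and CD + Veh (exact permutation p = 0.429, adjusted p = 0.429). With MD + Veh cut to libraries 46 and 47, whose numbers lie next to the PE libraries, the MD difference was -1.05 and the exact permutation p of 0.0952 was the smallest that 5 against 2 allow. This ratio was chosen after the values were seen. Of the 654 stretches of 31 bases in the Hamp mRNA, 128 (19.6%) also occur in Hamp2. They make up a larger share of the Hamp2 mRNA, which is shorter (437 against 684 bases). Reads from such stretches were shared out by estimation, so the split between the genes is less certain than their sum. With both genes summed to 1 row, the log2 fold change was -1.67 (edgeR adjusted p = 1.69e-05) between MD + Veh and CD + Veh, -1.29 (edgeR adjusted p = 0.000259) between MD + PE and CD + PE, and 0.12 (edgeR adjusted p = 0.827) between MD + PE and MD + Veh.

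**Figure D2:**
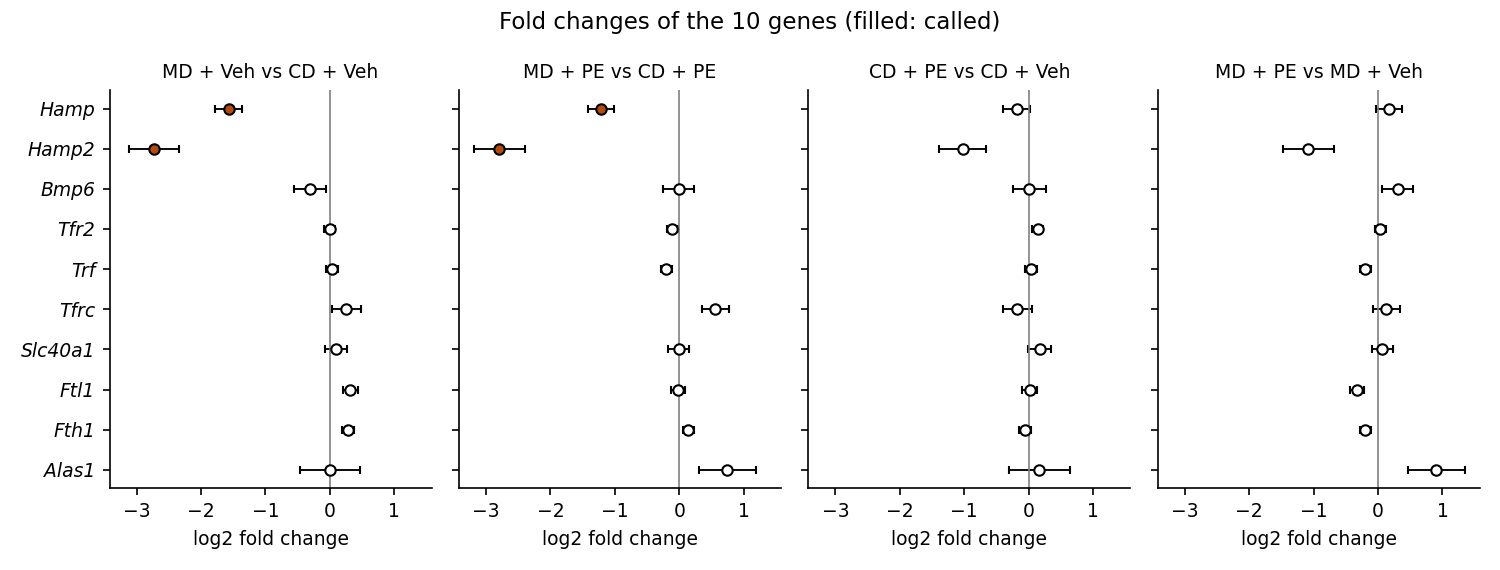
log2 fold change of the 10 genes in the 2 diet comparisons and the 2 PE comparisons, with bars of 1 SE, filled where called. Hamp and Hamp2 alone were called, in the diet comparisons, and the other 8 genes lay between -0.32 and 0.91.

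The other 8 genes gave 32 fold changes over the 4 comparisons, from -0.32 to 0.91 on the log2 scale, and 0 were called, with a smallest adjusted p of 0.05003 by edgeR. By DESeq2 too, the members called numbered 0 for PE on CD, 0 for PE on MD and 2 in each diet comparison. At an unadjusted p below 0.05, the 10 members gave 1 for PE on CD, 4 for PE on MD, 4 for diet under vehicle and 4 for diet under PE. The corresponding shares of all genes called were 2.92% for PE on CD and 1.08% for PE on MD, and shares at an unadjusted p below 0.05 were 17.5, 15.7, 28.6 and 21.7%. The interaction gave 0 members by either tool and 0 at an unadjusted p below 0.05, beside 0.00735% of all genes called and 8.77% at an unadjusted p below 0.05.

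Bmp6, the ligand through which liver iron raises hepcidin and a product mainly of sinusoidal endothelial cells, was weakly expressed, at 2.55 to 6.09 CPM over all libraries. The means of the vehicle groups were 4.43 ± 0.84 CPM on CD (SD, n = 4) and 3.57 ± 1.17 CPM on MD (SD, n = 5), and those of the PE groups 4.47 ± 1.22 CPM on CD and 4.44 ± 1.24 CPM on MD (SD, n = 5 each). Its smallest p was between MD + PE and MD + Veh (log2 fold change 0.31, SE 0.24, edgeR adjusted p = 0.585). That value was 0.17 without MD + PE replicate 3, 0.51 without MD + Veh replicate 1 and 0.78 with the division between libraries 45 and 46 as a covariate (edgeR adjusted p = 0.457). The groups overlapped, and endothelial markers likewise overlapped, at a summed 133 to 199 CPM in MD + Veh and 162 to 217 CPM in MD + PE.

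Tfr2, the second transferrin receptor, which hepatocytes use to sense iron-loaded transferrin, varied little. It stood at 306, 334, 363 and 297 CPM in CD + Veh and at 364, 311, 375, 380 and 360 CPM in CD + PE. Apart from CD + PE replicate 2, the PE libraries, at 360 CPM or more, lay around or above the top of the vehicle range. The difference was 0.14 on the log2 scale (SE 0.09, edgeR adjusted p = 0.459). MD + Veh ranged from 307 to 344 CPM and MD + PE from 264 to 379 CPM, both within or around the same span.

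Trf encodes transferrin, the iron carrier of plasma, and is made in quantity by hepatocytes. It stood at 11478, 10100, 11873 and 10507 CPM in CD + Veh, 10590 to 12239 CPM in CD + PE and 10527 to 11911 CPM in MD + Veh. In MD + PE it was at 10632, 8817, 9575, 10213 and 9874 CPM. Of these, 4 of 5 libraries lay below every library of the MD + Veh and CD + PE groups, but the difference was small and not called. It was -0.20 against MD + Veh (SE 0.09, edgeR adjusted p = 0.259) and -0.20 against CD + PE (SE 0.09, edgeR adjusted p = 0.171).

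Tfrc, the receptor that takes transferrin into cells, was low in these livers, at 13.0, 14.5, 16.2 and 13.5 CPM in CD + Veh and 19.8, 15.7, 15.7, 15.9 and 18.2 CPM in MD + Veh. The PE groups spread more widely, at 9.46, 15.2, 11.3, 10.1 and 17.4 CPM in CD + PE and 32.6, 17.1, 12.1, 16.8 and 14.9 CPM in MD + PE. One library, MD + PE replicate 1, carried the highest value of all. Between MD + PE and CD + PE the log2 fold change was 0.56 (SE 0.21, edgeR adjusted p = 0.124), and without a single library it ranged from 0.27 to 0.70. The lowest of these came with that replicate left out.

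Slc40a1, which encodes ferroportin, is known mainly from Kupffer cells and hepatocytes in the liver. It stood at 103, 64.6, 69.3 and 74.9 CPM in CD + Veh, 94.5, 120, 92.0, 68.1 and 66.0 CPM in CD + PE, 62.7 to 96.5 CPM in MD + Veh and 75.9 to 102 CPM in MD + PE. No group stood apart. Its smallest p was between CD + PE and CD + Veh (log2 fold change 0.17, SE 0.18, edgeR adjusted p = 0.680). The highest library, CD + PE replicate 2, also had the highest summed Kupffer markers, at 626 CPM against 70.0 to 270 CPM in all others, and the part of those cells in its value was not tested.

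Ferritin stores iron in a shell of light and heavy chains. Ftl1, the light chain, stood at 1766, 1895, 2089 and 2441 CPM in CD + Veh and 2642, 2827, 2874, 2236 and 2206 CPM in MD + Veh. Its MD + Veh libraries fell into a high set (replicates 1, 2 and 3, libraries 43 to 45) and a lower pair (replicates 4 and 5, libraries 46 and 47). The difference between MD + Veh and CD + Veh was 0.32 on the log2 scale (SE 0.12, edgeR adjusted p = 0.0798). It came to 0.45 (edgeR adjusted p = 0.0373) when only libraries 39 to 45 entered the fit. With the division between libraries 45 and 46 as a covariate it was 0.44 (edgeR adjusted p = 0.0205). Both of these fits set MD + Veh libraries 43 to 45 against CD + Veh, so they repeat 1 contrast. Without CD + Veh replicate 4 it was 0.43 (edgeR adjusted p = 0.0347). Those values passed the limits of a call. With MD + Veh libraries 46 and 47 alone the difference was 0.13 (edgeR adjusted p = 0.671).

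Under PE the Ftl1 groups lay together, at 1850, 2079, 2122, 1923 and 2380 CPM in CD + PE and 2139, 1962, 1667, 2140 and 2315 CPM in MD + PE. Between MD + PE and MD + Veh the log2 fold change was -0.32 (SE 0.11, edgeR adjusted p = 0.157), and with the same division as a covariate it was -0.12 (edgeR adjusted p = 0.839). Summed red blood cell markers (Hba-a1, Hba-a2, Hbb-bs, Hbb-bt, Alas2 and Slc4a1) were 516, 746 and 420 CPM in MD + Veh replicates 1 to 3 and 211 and 183 CPM in replicates 4 and 5. They were 147 to 221 CPM in CD + Veh and 175 to 330 CPM in MD + PE. Alas2 did not follow the split within MD + Veh, at 87.0, 78.9 and 98.2 CPM in replicates 1 to 3 and 95.3 and 92.6 CPM in replicates 4 and 5. The part of red blood cells in the Ftl1 values was not tested.

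Fth1, the heavy chain, which oxidises iron for storage, stood at 1193, 1277, 1305 and 1395 CPM in CD + Veh and 1446, 1747, 1719, 1561 and 1365 CPM in MD + Veh. A single MD + Veh library, replicate 5, lay inside the CD + Veh range. The log2 fold change was 0.28 (SE 0.09, edgeR adjusted p = 0.05003), just outside the limit on adjusted p and below the limit on fold change. CD + PE ranged from 1108 to 1355 CPM and MD + PE from 1180 to 1498 CPM. Between MD + PE and MD + Veh the log2 fold change was -0.20 (SE 0.09, edgeR adjusted p = 0.277), and -0.096 (edgeR adjusted p = 0.843) with the division between libraries 45 and 46 as a covariate. Ftl1 and Fth1 have processed copies elsewhere in the genome with which reads can be shared, and summing the rows of such copies changed no call of either gene.

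Alas1, the gene of the rate-limiting step of heme synthesis in liver, varied widely among the mice of every group. It stood at 252, 400, 148 and 146 CPM in CD + Veh, 100, 393, 277, 202 and 352 CPM in CD + PE and 75.1, 157, 298, 255 and 403 CPM in MD + Veh. In MD + PE it was at 134, 447, 573, 451 and 619 CPM, so 4 of 5 libraries lay above every library of the other groups while the fifth lay near their low end. The log2 fold change against MD + Veh was 0.91 (SE 0.45, edgeR adjusted p = 0.337), and 0.44 (edgeR adjusted p = 0.866) with the division between libraries 45 and 46 as a covariate.

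**Figure D3:**
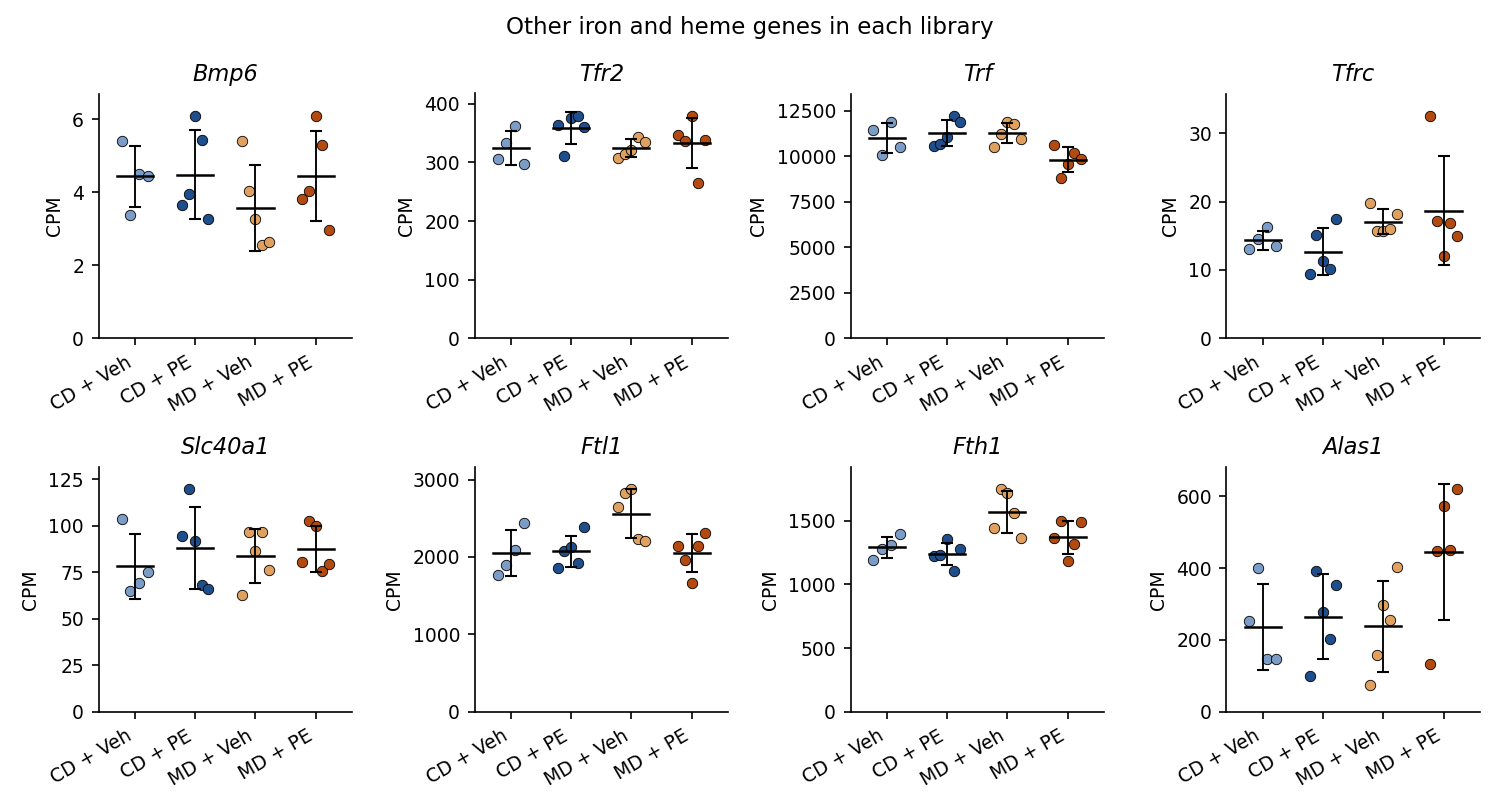
CPM of the other 8 genes in each library by group, with the group mean and SD. The groups overlap in every panel. Ftl1 is highest in 3 MD + Veh libraries (2642 to 2874 CPM), a single MD + PE library of Tfrc stands at 32.6 CPM, and Alas1 spans 75.1 to 403 CPM within MD + Veh.

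Hamp, Tfrc and Alas1 were each set beside the genes whose log2 CPM followed them most closely over the 19 libraries. For Hamp these were Fgb, the fibrinogen beta chain (Pearson r = 0.894, Spearman rho = 0.839), Dgkq, a diacylglycerol kinase (r = 0.877, rho = 0.854), and Slc10a1, the bile acid uptake transporter of hepatocytes (r = 0.871, rho = 0.861). For Tfrc they were Dus3l (r = 0.777), Gm8113 (r = 0.768) and Mtmr7 (r = 0.760), with rho of 0.665, 0.640 and 0.728. For Alas1 they were Phaf1 (r = 0.852), Wdr45b (r = 0.822) and Arid5b (r = 0.820), with rho of 0.789, 0.830 and 0.814. These are descriptions over 19 libraries that share diets and, for Hamp, carry a difference between groups.

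Beyond the 10 genes, 80 further genes of iron and heme handling were examined, of which 76 were tested. Between MD + Veh and CD + Veh, 9 were called higher and 6 lower, or 19.7% of those tested beside 10.4% of all genes. Between MD + PE and CD + PE, 4 were called higher and 0 lower (5.26% beside 4.61%). PE gave 3 higher and 0 lower on CD (3.95% beside 2.92%) and 0 higher and 1 lower on MD (1.32% beside 1.08%). The interaction gave 0 calls by edgeR and 0 by DESeq2, with 11 of the 76 genes at an unadjusted p below 0.05, beside 8.77% of all genes. At that limit the 4 other comparisons gave 36, 20, 15 and 12 genes in the same order, beside 28.6, 21.7, 17.5 and 15.7% of all genes. Median log2 fold changes of the list were -0.03, 0.02, 0.01 and 0.02 in the order just given. Steap1, Ftmt, Ltf and Erfe did not pass the filter. With the clock score as a covariate, 0 of the 15 genes called between MD + Veh and CD + Veh remained called and 2 others, Abcb6 and Foxo1, were, while over all genes 386 were called in place of 1410. The scores of CD + Veh and MD + Veh did not overlap, so a call lost in this fit does not tell diet and score apart. The part of the clock genes in these values was not tested.

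Genes that control hepcidin made up 18 of the 76, and 1 was called higher and 4 lower in MD + Veh than in CD + Veh, beside 10.4% of all genes called and 5.63% called lower. Id1, a direct target of BMP signalling, stood at 10.1, 11.5, 10.9 and 30.7 CPM in CD + Veh and 7.54, 5.20, 3.55, 4.88 and 3.94 CPM in MD + Veh, without overlap (log2 fold change -1.65, SE 0.38, edgeR adjusted p = 0.00592). Smad7, the inhibitory SMAD that the pathway itself induces, stood at 13.6, 14.0, 13.7 and 20.5 CPM and 12.3, 10.8, 11.4, 8.59 and 9.58 CPM (log2 fold change -0.55, edgeR adjusted p = 0.0324). Smad1, a transducer of BMP signals, fell by 0.50 (edgeR adjusted p = 0.0164) and Fgl1, a secreted hepatocyte protein reported to restrain BMP signalling, by 1.03 (edgeR adjusted p = 0.0259). Hfe, whose loss causes hemochromatosis, was the 1 that rose, from 28.4 ± 2.99 CPM to 39.3 ± 2.27 CPM (SD, n = 4 and n = 5, log2 fold change 0.47, edgeR adjusted p = 0.000329). Hfe was at 0.27 (edgeR adjusted p = 0.130) and no longer called with the clock score as a covariate.

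The calls of Smad7, Smad1 and Fgl1 depended on single libraries, unlike those of the hepcidin genes. Id1 stayed called in all 19 fits with a library left out, though close to the limit in 1 of them. CD + Veh replicate 4 had the highest Hamp, Hamp2, Id1 and Smad7 of its group, and without it the log2 fold change was -0.37 for Smad7 (edgeR adjusted p = 0.161), -0.47 for Smad1 (edgeR adjusted p = 0.0542) and -1.10 for Id1 (edgeR adjusted p = 0.0482). Smad1 was at -0.37 without CD + Veh replicate 2 (edgeR adjusted p = 0.0747). Smad7 also left the called set without MD + Veh replicate 2, 4 or 5, and Fgl1 without CD + Veh replicate 1 or 3 or MD + Veh replicate 1, 3 or 4 (-1.02 to -0.88, edgeR adjusted p = 0.0528 to 0.0928). With the clock score as a covariate, Id1 was at -0.47 (edgeR adjusted p = 0.727), Smad7 at -0.23 (edgeR adjusted p = 0.697), Smad1 at -0.46 (edgeR adjusted p = 0.263) and Fgl1 at -1.49 (edgeR adjusted p = 0.0518). With MD + Veh libraries 46 and 47 alone, none of these 4 was called, at -1.83 for Id1 (edgeR adjusted p = 0.0632), -0.75 for Smad7 (edgeR adjusted p = 0.0659), -0.51 for Smad1 (edgeR adjusted p = 0.142) and -0.88 for Fgl1 (edgeR adjusted p = 0.279). Under PE neither was called, with Id1 at -0.56 (edgeR adjusted p = 0.398) and Smad7 at -0.52 (edgeR adjusted p = 0.0578) between MD + PE and CD + PE, although Smad7 was called with CD + PE replicate 2 left out (-0.59, edgeR adjusted p = 0.0255) and with CD + Veh replicate 4 left out (-0.51, edgeR adjusted p = 0.0397). Smad6 and Atoh8, other genes that BMP signals induce, had log2 fold changes of 0.21 and 0.14 between MD + Veh and CD + Veh (edgeR adjusted p = 0.610 and edgeR adjusted p = 0.762). Smad6 was at -0.43 with MD + Veh libraries 46 and 47 alone.

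Other genes of hepcidin control were not called between the diets under vehicle. Tmprss6, the protease that cuts hemojuvelin, had a log2 fold change of -0.04 (edgeR adjusted p = 0.800) and Hjv, hemojuvelin itself, of 0.08 (edgeR adjusted p = 0.747) between MD + Veh and CD + Veh. Bmp2, a ligand from endothelium, was at -0.38 (edgeR adjusted p = 0.118). Hjv was the 1 gene of the list called after PE on MD, at 106, 102, 85.8, 71.8 and 72.8 CPM in MD + Veh and 67.4, 54.7, 45.2, 63.9 and 60.3 CPM in MD + PE (log2 fold change -0.59, SE 0.14, edgeR adjusted p = 0.0364). The groups did not overlap, but libraries 46 and 47 were the lowest of MD + Veh, and against those libraries alone the value was -0.30 (edgeR adjusted p = 0.637). Leaving out any of MD + Veh replicates 1 to 3, MD + PE replicates 2 to 5 and CD + Veh replicate 1 also took Hjv out of the called set (-0.61 to -0.50, edgeR adjusted p = 0.0543 to 0.111). Acvr2a, a BMP and activin receptor, was called higher after PE on CD (log2 fold change 0.39, edgeR adjusted p = 0.0408). That call was lost when any of 11 of the 19 libraries was left out, all 9 of these groups among them (0.35 to 0.42, edgeR adjusted p = 0.0501 to 0.113). With the division between libraries 45 and 46 as a covariate, the value was -0.035. That division separates all CD + Veh from all CD + PE libraries, so the fit estimates it from MD + Veh alone.

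Among 14 tested genes of iron and heme uptake, 4 were called higher and 1 lower in MD + Veh than in CD + Veh, beside 10.4% of all genes called and 5.63% called lower. The iron transporter Slc11a2 (DMT1) rose by 0.57 on the log2 scale (edgeR adjusted p = 0.000948), the endosomal ferrireductase Steap3 by 0.74 (edgeR adjusted p = 0.0106), the heme transporter Slc48a1 by 0.51 (edgeR adjusted p = 0.000361) and Flvcr2 by 1.55 from a mean of 1.05 CPM (edgeR adjusted p = 0.00612). Steap2, another metalloreductase, fell by 1.12 (edgeR adjusted p = 0.00346). None of the 5 was called with the clock score as a covariate, with Slc11a2 at 0.32 (edgeR adjusted p = 0.226), Steap3 at 0.28 (edgeR adjusted p = 0.627), Slc48a1 at 0.35 (edgeR adjusted p = 0.112), Flvcr2 at 0.96 (edgeR adjusted p = 0.414) and Steap2 at -0.74 (edgeR adjusted p = 0.307). With MD + Veh libraries 46 and 47 alone, Flvcr2 was at 0.77 (edgeR adjusted p = 0.309), Steap3 at 0.41 (edgeR adjusted p = 0.312) and Steap2 at -1.14 (edgeR adjusted p = 0.0696), and the other 2 stayed called. Slc11a2 and Steap3 were also called higher in MD + PE than in CD + PE, at 0.40 (edgeR adjusted p = 0.0153) and 0.59 (edgeR adjusted p = 0.0445), together with the siderophore-binding protein Lcn2, at 2.38 (edgeR adjusted p = 0.0376). The calls under PE depended on single libraries. Steap3 left the called set without any of 10 libraries (CD + PE replicates 2 to 5, MD + PE replicates 1, 2, 3 and 5, MD + Veh replicates 2 and 3; 0.49 to 0.63, edgeR adjusted p = 0.0537 to 0.107) and Slc11a2 without CD + PE replicate 3 or MD + PE replicate 1 (0.35 and 0.34). The clock score as a covariate left Steap3 at 0.48 (edgeR adjusted p = 0.0901) and Slc11a2 at 0.34, below the fold limit. Lcn2 left it without any CD + PE library but replicate 2 and without MD + PE replicate 2, 4 or 5 (1.89 to 2.41, edgeR adjusted p = 0.0571 to 0.118), and without CD + PE replicate 2 it was at 3.47. Slc39a14, a zinc and iron importer that serves iron not bound to transferrin, was at -0.35 under vehicle (edgeR adjusted p = 0.0533), and it was called without CD + Veh replicate 2 or MD + Veh replicate 4 (-0.41 and -0.42).

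Of 4 export genes, Abcg2, a transporter that can carry porphyrins and heme, was called in both diet comparisons, beside 10.4% and 4.61% of all genes. It rose from 55.7 ± 2.90 CPM in CD + Veh (SD, n = 4) to 85.5 ± 8.32 CPM in MD + Veh (SD, n = 5) and from 53.7 ± 8.62 CPM in CD + PE to 92.1 ± 13.6 CPM in MD + PE (SD, n = 5 each), with log2 fold changes of 0.62 (edgeR adjusted p = 0.00144) and 0.78 (edgeR adjusted p = 0.000176). The vehicle value, with the clock score as a covariate, was 0.57 and no longer called (edgeR adjusted p = 0.0872), and the value under PE was 0.77 (edgeR adjusted p = 0.000447). Cp, ceruloplasmin, the copper oxidase that loads iron onto transferrin, did not move by more than 0.04 on the log2 scale in any of the 4 comparisons. By edgeR, none of the 6 tested genes of storage and iron sensing was called in any of the 4 comparisons. The shares of all genes called were 10.4% for diet under vehicle, 4.61% for diet under PE, 2.92% for PE on CD and 1.08% for PE on MD.

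Heme synthesis contributed 13 tested genes, of which Clpx and Cpox were called higher both with MD under vehicle and with PE on CD, beside 10.4% and 2.92% of all genes called. In the comparisons of MD + PE with CD + PE and with MD + Veh, 0 of the 13 were called, beside 4.61% and 1.08% of all genes. Cpox was at 0.02 and 0.08 there on the log2 scale. Clpx encodes the mitochondrial unfoldase that activates ALAS and, when heme is plentiful, promotes its breakdown. It stood at 59.2, 50.3, 59.3 and 40.95 CPM in CD + Veh, 118, 144, 127, 73.2 and 69.5 CPM in CD + PE and 119, 212, 180, 136 and 85.3 CPM in MD + Veh, so neither group overlapped CD + Veh. The log2 fold changes were 1.02 (SE 0.24, edgeR adjusted p = 0.0241) and 1.48 (SE 0.25, edgeR adjusted p = 0.000492). Cpox, coproporphyrinogen oxidase, stood at 120, 132, 111 and 133 CPM in CD + Veh, 199, 180, 218, 148 and 173 CPM in CD + PE and 151, 179, 180, 199 and 168 CPM in MD + Veh (log2 fold changes 0.57, edgeR adjusted p = 0.00512, and 0.50, edgeR adjusted p = 0.00278). These comparisons share the CD + Veh libraries. After PE on CD, Clpx was called no longer with CD + PE replicate 3 or CD + Veh replicate 2 or 4 left out (0.94 to 1.00, edgeR adjusted p = 0.0612 to 0.0885). With the clock score as a covariate, Clpx was at 0.31 (edgeR adjusted p = 0.390) and 0.47 (edgeR adjusted p = 0.288) and Cpox at 0.55 (edgeR adjusted p = 0.0411) and 0.48 (edgeR adjusted p = 0.118), after PE on CD and with MD under vehicle. With the division between libraries 45 and 46 as a covariate, neither was called after PE on CD, at 1.65 for Clpx (edgeR adjusted p = 0.0743) and 0.46 for Cpox (edgeR adjusted p = 0.301). All CD + Veh libraries lie before that division and all CD + PE libraries after it, so the fit estimates it from MD + Veh alone. Over all genes, 37 were then called after PE on CD in place of 397, so these lost calls are not particular to Clpx and Cpox.

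Alas2, the erythroid isoform of the first enzyme, whose 5′ UTR also held a match to the iron-responsive element, was at 65.2 ± 13.8 CPM in CD + Veh (SD, n = 4) and 90.4 ± 7.65 CPM in MD + Veh (SD, n = 5) and was not called (log2 fold change 0.47, edgeR adjusted p = 0.0586), though it was with any of CD + PE replicates 1 and 5, MD + PE replicate 4 and CD + Veh replicate 3 left out (0.47 to 0.62, edgeR adjusted p = 0.0215 to 0.0468). Hmox1, which breaks heme down to biliverdin, iron and carbon monoxide, stood at 11.6, 7.88, 11.4 and 9.29 CPM in CD + Veh and 14.5, 23.4, 19.2, 17.2 and 20.9 CPM in MD + Veh (log2 fold change 0.92, edgeR adjusted p = 0.0385). That call was lost when any CD + Veh library or MD + Veh replicate 2, 3 or 5 was left out (0.82 to 1.01, edgeR adjusted p = 0.0608 to 0.106). In CD + PE, replicate 2, the library rich in Kupffer markers, was at 22.02 CPM and the other 4 were between 6.62 and 8.80 CPM. Slc25a28, mitoferrin 2, which brings iron into mitochondria, fell by 0.42 with MD under vehicle (edgeR adjusted p = 0.000634). It was below the fold limit without CD + Veh replicate 4 or MD + Veh replicate 3, at -0.36 and -0.38. In the mitochondrial iron and iron-sulfur cluster list it was the 1 called gene of 12, or 8.33% beside 10.4% of all genes. Hmox1 was at -0.018 (edgeR adjusted p = 0.984) and Slc25a28 at -0.28 (edgeR adjusted p = 0.150) once the clock score was a covariate.

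**Figure D4:**
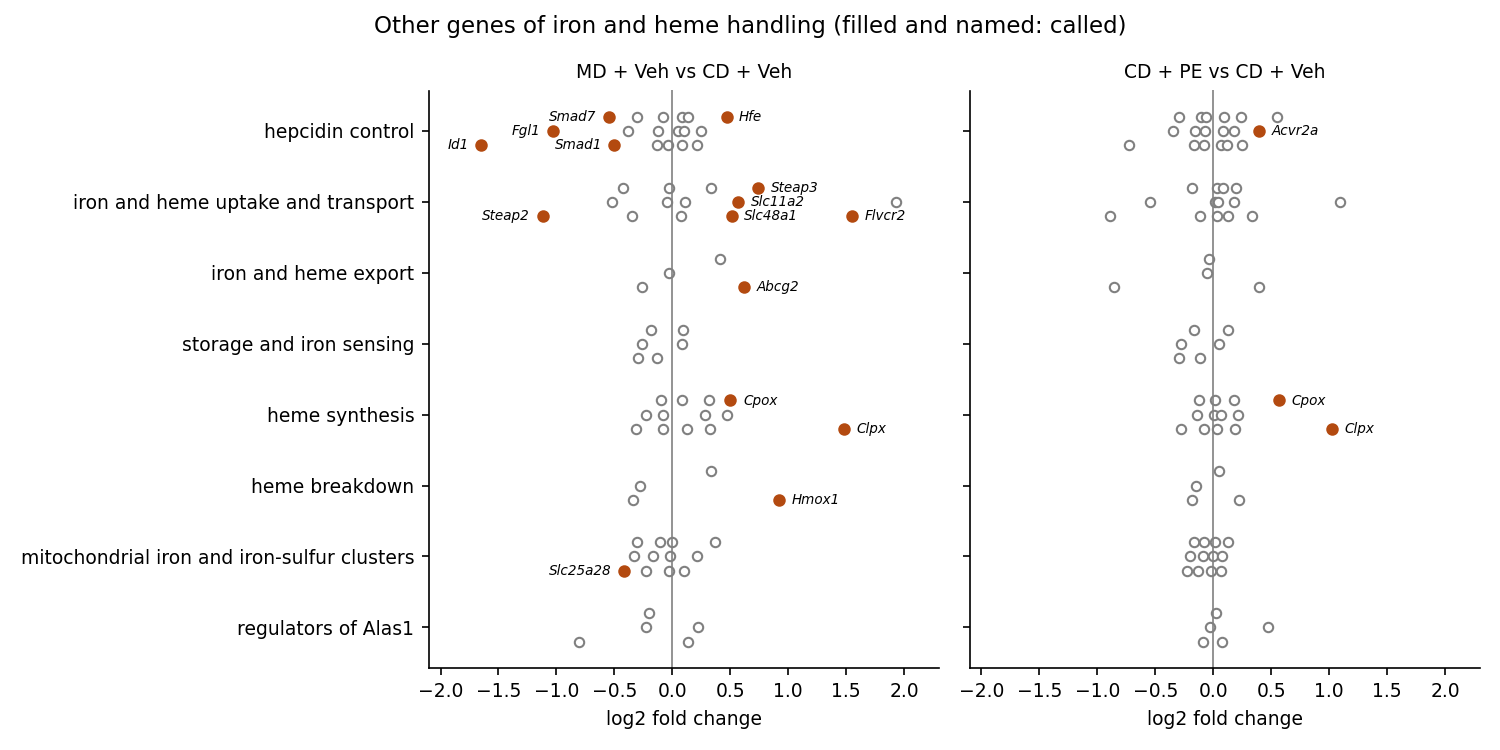
log2 fold changes of the 76 tested genes outside the 10, by role, between MD + Veh and CD + Veh (left) and CD + PE and CD + Veh (right). Filled and named points were called, 15 on the left and 3 on the right.

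Markers of other cell types gave the following background. Summed Kupffer markers were 84.3 to 151 CPM in CD + Veh and 173 to 270 CPM in MD + Veh, and stellate cell markers 122 to 166 and 157 to 388 CPM. Skeletal muscle markers reached 1990 CPM in MD + Veh replicate 1 and 128 and 83.1 CPM in MD + Veh replicates 2 and 3. They were at 311 CPM in CD + PE replicate 1 and 24.4 CPM in CD + Veh replicate 2. All 5 of them were called higher in MD + Veh than in CD + Veh. Duct markers reached 115 CPM in a single MD + PE library against 8.30 to 17.5 CPM in the groups other than MD + PE. The intestinal epithelium list was at 42.8 to 67.2 CPM in CD + Veh and 104 to 121 CPM in MD + Veh, nearly all of it Fabp2 (means 53.9 and 114 CPM). Its other members were low there, with Vil1 at means of 0.410 and 0.148 CPM, Sis at 0 and 0.0619 CPM and Cdx2 at 0 in both. In a single MD + PE library the list reached 163 CPM, with Vil1 at 22.7, Sis at 20.9 and Cdx2 at 2.02 CPM. The exocrine pancreas list was at 5.39 to 18.8 CPM throughout, nearly all of it Cela1. Its other members, Cpa1, Prss2 and Pnlip, were at 0 in every library of CD + Veh, MD + Veh and MD + PE. In CD + PE they reached at most 0.526, 0.263 and 0.439 CPM. No marker of these lists was at 0 in all libraries, and the part of these cells in the values was not tested.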

How the data were processed

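Liver poly(A) libraries were trimmed with fastp (0.23.4) and quantified by the authors with Salmon (1.10.3) against the GENCODE transcriptome of GRCm39, with correction for sequence bias. The deposited table holds estimated counts per gene (expected counts, given as whole numbers by the authors, summed to genes with tximport), so reads shared by similar transcripts were divided by estimation. The GENCODE release was not given in the sources used here.

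Counts were tested with edgeR (4.0.16, R 4.3.3) by quasi-likelihood F tests on all 19 libraries with TMM scaling, filterByExpr and Benjamini-Hochberg adjustment over the 13597 genes kept. DESeq2 (1.42.0), other scaling, other filters and covariates were alternatives, and the script was tested on simulated data. A call needed an adjusted p below 0.05 and a log2 fold change of at least 0.38 in size. A count is an estimate of reads and CPM compares a gene between libraries, not genes of different length. The Hamp2 to Hamp ratio was tested by exact permutation. The members, gene lists and tests were chosen with earlier results of these data known. All 10 genes are named. Of the wider list, the 12 called genes of smallest adjusted p and 10 preset genes are named, and Fgl1, Lcn2, Acvr2a, Smad6 and Atoh8 were added after their values were seen.

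Replicates are numbered as separate livers in their labels. The protocol in the labels speaks of 4 randomly selected livers, while groups held 4 or 5 libraries. Replicate numbers did not pair libraries, since the median correlation of 27 same-numbered pairs was 0.03 and 6 exceeded 0.1. No 2 libraries of a group agreed within sampling noise. Coordinates and hairpin sequences are from GENCODE vM39 and upstream windows from RefSeq (GRCm39). Some items are not reported here.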

Additional observations from a re-analysis of the deposited data

Results flagged for a closer look

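Within groups of 4 or 5 libraries, a highest or lowest library far from the others was looked for in each of the 10 genes, which made 40 groups, and 3 were found, where chance gives about 5%. Hamp stood at 807 CPM in CD + Veh replicate 4, the highest of 4, and the other libraries of that group were at 570 to 606 CPM. Without this library the log2 fold changes of Hamp and Hamp2 between MD + Veh and CD + Veh stayed called. Tfr2 stood at 311 CPM in CD + PE replicate 2, the lowest of 5, with the others at 360 to 380 CPM. That library also had the highest Kupffer and Slc40a1 values. Tfrc stood at 32.6 CPM in MD + PE replicate 1, the highest of 5, with the others at 12.1 to 17.1 CPM. Alas1 in that same library was the lowest of MD + PE, at 134 CPM.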

How the results depend on the processing

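Hamp and Hamp2 were called in both diet comparisons under every alternative that kept them as separate genes, with log2 fold changes of -1.65 to -1.42 and -2.99 to -2.40 under vehicle and -1.37 to -1.12 and -3.03 to -2.65 under PE. With near-identical rows summed they form 1 gene, and the members called numbered 1 in each diet comparison. With the replicate block, the members called were 0 for PE on either diet, 2 for diet under vehicle, 2 for diet under PE and 0 for the interaction, and the block changed no other call of the 10. Of the 153 counts of members called, 151 stayed within 1.5 times the main value and 2 moved. The Hamp2 interaction, near 0, ran from -0.38 to 0.20 with a library left out, and the cause was not tested. With the clock score as a covariate, Slc40a1 after PE on CD was -0.14 and Hmox1 under vehicle -0.018, both of opposite sign to the values without it. Small fold changes under vehicle also turned, Hjv to -0.22 with the clock score and -0.18 with libraries 46 and 47 alone, Smad6 to -0.43 with the latter, and Tmprss6 to 0.044 with the clock score and from -0.057 to 0.011 with a library left out. Acvr2a after PE on CD turned to -0.035 with the division between libraries 45 and 46 as a covariate, which separates all CD + Veh from all CD + PE libraries.

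The wider list was less stable. Under vehicle, 15 genes were called between the diets and 2 with the clock score, which did not overlap between these groups. The number was 8 with MD + Veh libraries 46 and 47 alone (fewer samples) and 23 with no minimum fold change. For PE on CD, 3 were called, 0 with the division between libraries 45 and 46 as a covariate, 1 with the clock score and 1 to 4 with a library left out. The lowest count came without CD + Veh replicate 2, CD + Veh replicate 4 or CD + PE replicate 3. With the division, which separates all CD + Veh from all CD + PE libraries, 37 of all genes were called in place of 397. For PE on MD, 1 gene (Hjv) was called, 0 with the division as a covariate, with the compared groups alone, with libraries 46 to 57 alone or with libraries 46 and 47 as MD + Veh, 2 with DESeq2 and 0 to 1 with a library left out (0 in 8 of 19 cases). For diet under PE, 4 were called, 7 with DESeq2, 9 with no minimum fold change and 1 to 7 with a library left out, the highest without CD + PE replicate 2 and the lowest without CD + PE replicate 3. Causes other than fewer samples were not tested. The fits limited to libraries 39 to 45 or 46 to 57 hold at most 3 or 2 MD + Veh libraries. At 9.96 to 16.1 counts per CPM, Bmp6 and Flvcr2 rest on few counts.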
